A study of Mus musculus with 31 samples.

Results

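Loss of the nuclear receptor gene Rorb was examined in retinas of postnatal day 28 (P28) mice that carried a transgene expressing the rod transcription factor gene Nrl. The comparison was chosen by the labels of genotype and age: 4 mice of genotype Rorb-/-;CrxpNrl against 3 mice of genotype +/+;CrxpNrl, 7 of the 31 mice in the series. Both groups therefore carried the CrxpNrl transgene, in which the Crx promoter drives Nrl, and they differed in Rorb. The other arrays used here came from P28 Rorb-/- and P28 +/+ mice without the transgene (4 each) and from P14 Rorb-/-;CrxpNrl and P14 +/+;CrxpNrl mice (4 each), none of which were shared with the main comparison. Each sample was the RNA of the 2 retinas of 1 mouse, hybridised to an Affymetrix mouse expression array. The labels give no strain, no sex and no deleted part of Rorb. Since whole retinas were measured, fewer cells of a type and less RNA per cell cannot be told apart. Signals are also relative to the total RNA of a sample, so a higher signal need not be more RNA per cell or per retina.

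RORβ is a nuclear receptor of retinal progenitors and photoreceptor precursors, and it acts upstream of Nrl in the making of rods. NRL, a leucine zipper factor, activates rod genes together with the homeodomain factor CRX and turns precursors away from the cone fate. The Crx promoter is active in photoreceptor precursors, so the transgene supplies NRL to cells destined to become cones as well as rods, and cones are then lost in favour of rods. RORβ is also needed for amacrine and horizontal cells, the inhibitory interneurons of the retina. The comparison therefore addresses what loss of RORβ does when Nrl no longer depends on its own promoter alone.

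The promoters of 4 genes are shown here as examples from the gene groups followed below: a cone opsin, a rod phosphodiesterase subunit, the cone transducin and an interferon-stimulated gene. Each is the RefSeq sequence (GRCm38.p6) from 250 bases before to 50 bases after the start of transcription, written 5′ to 3′ on the gene's strand. Capitals mark matches on either strand to AGGTCA, the core bound by ROR receptors, in Opn1sw (chr6:29380464-29380763, minus strand), to TGCTGA, the core of the NRL element, in Pde6b (chr5:108388123-108388422, plus strand), to TAATCC, a CRX site, in Gnat2 (chr3:108092816-108093115, plus strand), and to GAAA, any 2 bases and GAAA again, a pattern of interferon response elements, in Ifit1 (chr19:34640639-34640938, plus strand).
Opn1sw: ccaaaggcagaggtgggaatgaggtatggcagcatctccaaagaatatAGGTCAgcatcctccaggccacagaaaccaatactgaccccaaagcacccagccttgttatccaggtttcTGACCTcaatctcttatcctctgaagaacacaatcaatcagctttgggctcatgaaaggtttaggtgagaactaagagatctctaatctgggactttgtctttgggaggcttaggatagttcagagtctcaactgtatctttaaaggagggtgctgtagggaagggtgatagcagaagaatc
Pde6b: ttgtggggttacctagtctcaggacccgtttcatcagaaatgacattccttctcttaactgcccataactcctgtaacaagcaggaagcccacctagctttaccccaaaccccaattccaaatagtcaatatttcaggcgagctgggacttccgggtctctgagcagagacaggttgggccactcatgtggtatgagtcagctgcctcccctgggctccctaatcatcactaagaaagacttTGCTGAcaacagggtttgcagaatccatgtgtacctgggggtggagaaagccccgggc
Gnat2: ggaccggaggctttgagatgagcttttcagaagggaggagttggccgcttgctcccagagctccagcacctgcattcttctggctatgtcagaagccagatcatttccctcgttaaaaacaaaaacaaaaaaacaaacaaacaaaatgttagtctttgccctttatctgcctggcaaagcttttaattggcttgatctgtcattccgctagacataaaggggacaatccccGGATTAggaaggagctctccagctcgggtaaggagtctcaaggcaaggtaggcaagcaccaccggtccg
Ifit1: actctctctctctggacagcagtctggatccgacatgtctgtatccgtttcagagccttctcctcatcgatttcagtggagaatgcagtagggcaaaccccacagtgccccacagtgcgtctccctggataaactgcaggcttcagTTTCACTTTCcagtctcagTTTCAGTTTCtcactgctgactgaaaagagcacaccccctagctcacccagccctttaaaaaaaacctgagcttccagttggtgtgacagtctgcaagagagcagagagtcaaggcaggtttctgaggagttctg

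The motifs were counted in all promoters of each gene list beside all 32851 RefSeq promoters. AGGTCA stood in 4 of 12 rod promoters (33.3%), 4 of 20 cone promoters (20%) and 0 of 25 amacrine promoters, against 16.3% of all promoters. TAATCC stood in 5 of 12 rod promoters (41.7%), 5 of 20 cone promoters (25%) and 7 of 23 outer segment promoters (30.4%), against 7.06% of all. TGCTGA stood in 2 of 12 rod promoters (16.7%) and 5 of 23 outer segment promoters (21.7%), against 19.5% of all. High shares were not particular to photoreceptor lists. Pigment epithelium and melanocyte promoters held AGGTCA in 5 of 12 (41.7%) and TAATCC in 6 of 12 (50%). Microglia and macrophage promoters held AGGTCA in 5 of 13 (38.5%). Lens promoters held TGCTGA in 10 of 14 (71.4%) and ganglion cell promoters in 7 of 15 (46.7%), whereas clock promoters held TAATCC in 0 of 20. The interferon pattern stood in 8 of 16 promoters of the interferon-stimulated list (50%), in none of the rod, cone, outer segment or amacrine promoters, and in 3.44% of all. It was added to the search after the interferon result had been seen. A match is a description of the letters and not a binding site, and promoters of 11 of 18 rod, 12 of 16 cone, 19 of 21 outer segment, 20 of 23 amacrine and 14 of 17 interferon-stimulated genes were held in the sequence table.

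Values are log2 signals, so that a difference of 1 is a 2-fold difference, and every difference is Rorb-/-;CrxpNrl (the Rorb-/- transgenic mice) minus +/+;CrxpNrl (the +/+ transgenic mice) ± SE from a limma fit over all arrays unless another comparison is named. A gene is said to have risen, fallen or been called when its Benjamini-Hochberg adjusted p over 18193 genes was under 0.05. Of these genes 6651 (36.6%) were called, 3762 (20.7%) higher and 2889 (15.9%) lower, and 1329 (7.31%) were also at least 2-fold apart, 829 (4.56%) higher and 500 (2.75%) lower. The median difference of all genes was -0.0042. Arrays of the 4 Rorb-/-;CrxpNrl mice correlated at 0.985 to 0.995 with each other, those of the 3 +/+;CrxpNrl mice at 0.995, and arrays of different groups at 0.959 to 0.976. The median SD of a gene was 0.151 in Rorb-/-;CrxpNrl and 0.114 in +/+;CrxpNrl. The fit shares 1 estimate of the spread over 8 groups. For genes that varied more in Rorb-/-;CrxpNrl, as rod genes did, the printed SE and adjusted p can therefore be too small. Lower quartiles of the arrays lay at 3.98 to 4.05 and maxima above 14, so a difference from a group near either end is a lower bound. Over 21 lists of marker and pathway genes, 320 of 348 symbols had a probe set of their own. Of the measured genes 12 stood in more than 1 list, so the lists are not fully separate.

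Rorb itself and Nrl were both lower in the mice without Rorb. Rorb had 8.15, 8.58, 8.27 and 8.27 in Rorb-/-;CrxpNrl and 11.06, 10.84 and 11.18 in +/+;CrxpNrl, a difference of -2.71 ± 0.21 (adjusted p = 2.17e-11), and the other 2 of its 3 probe sets were lower in every Rorb-/-;CrxpNrl mouse too. A probe set outside the deleted part would not check the genotype. Nrl had 11.63, 11.86, 9.39 and 10.44 in Rorb-/-;CrxpNrl and 13.32, 12.99 and 13.37 in +/+;CrxpNrl, a difference of -2.40 ± 0.43 (adjusted p = 5.12e-05). The groups did not overlap for either gene, and the Nrl values of replicates 1 and 2 were over 1 log2 unit above those of replicates 3 and 4. The probe set does not separate transgene from endogenous Nrl transcripts, and the mean of +/+;CrxpNrl lay near the top of the scale. For comparison, the P28 means of Nrl without the transgene were 9.53 in Rorb-/- and 13.26 in +/+.

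**Figure D1:**
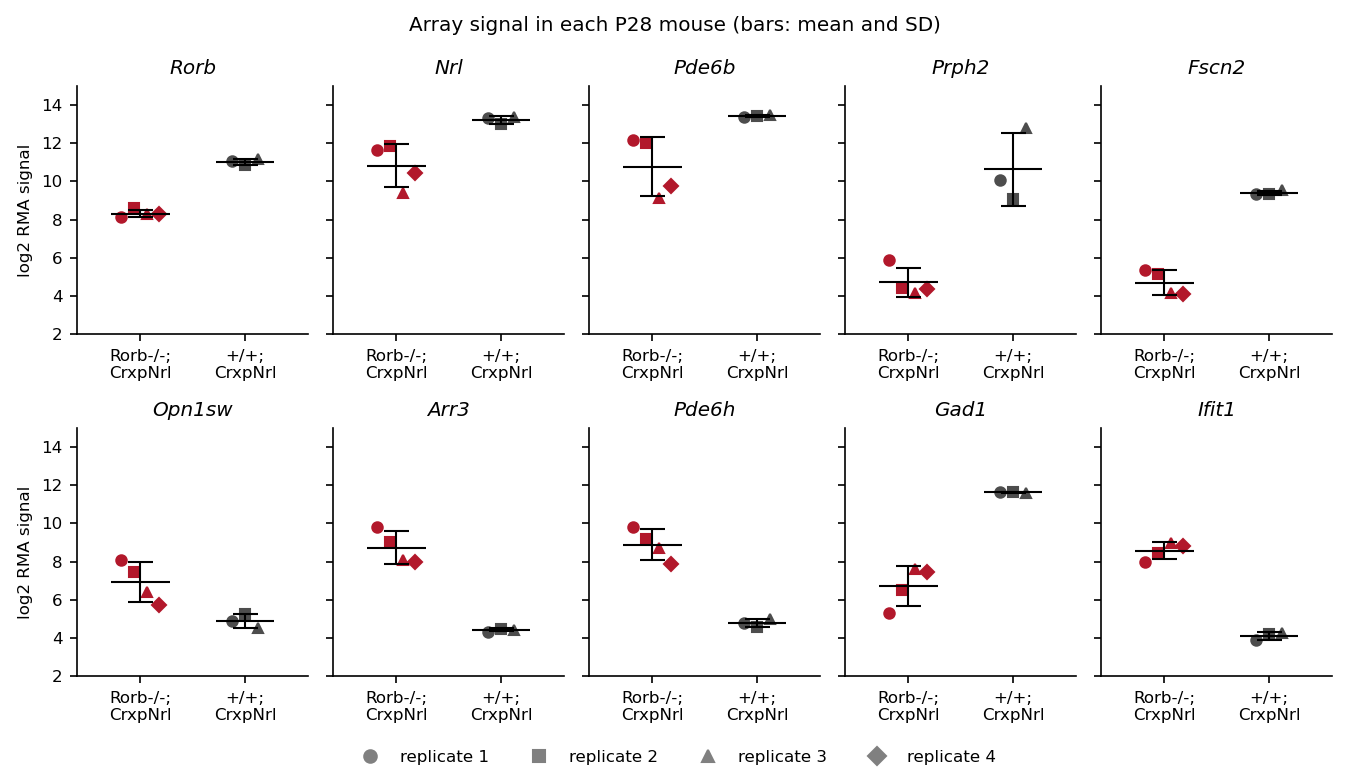
Log2 signal of 10 genes in each P28 mouse, Rorb-/-;CrxpNrl left of +/+;CrxpNrl, with 1 symbol shape per replicate number and bars for the mean and SD (n = 4 and 3). Rorb, Nrl, Pde6b, Prph2, Fscn2 and Gad1 are lower in all 4 Rorb-/-;CrxpNrl mice than in any +/+;CrxpNrl mouse, Opn1sw, Arr3, Pde6h and Ifit1 are higher in all 4, and Nrl and Pde6b spread over more than 2 log2 units among the 4.

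Rod transcripts fell. Of 18 measured rod genes 17 fell and 0 rose, with a median difference of -2.42, and in all 18 the groups did not overlap, beside 16.2% of all genes with every Rorb-/-;CrxpNrl mouse below every +/+;CrxpNrl mouse. Kcnj14, a potassium channel gene, had 9.26, 9.01, 6.97 and 7.61 in Rorb-/- transgenic mice and 11.39, 11.55 and 11.72 in +/+ transgenic mice (-3.34 ± 0.42, adjusted p = 2.78e-07). Guca1b, which encodes a guanylate cyclase activator of the light response, had 11.41, 11.11, 8.90 and 9.79 in Rorb-/- transgenic mice and 13.27, 13.33 and 13.30 in +/+ transgenic mice (-3.00 ± 0.39). The orphan nuclear receptor gene Esrrb, needed for rod survival, had 8.92, 8.56, 6.49 and 6.69 in Rorb-/- transgenic mice and 10.31, 10.44 and 11.01 in +/+ transgenic mice (-2.92 ± 0.44). All 3 genes thus stood lowest in replicates 3 and 4 and nearest to +/+;CrxpNrl in replicates 1 and 2.

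Pde6b, a catalytic subunit gene of rod phosphodiesterase, had 12.16, 12, 9.14 and 9.76 in Rorb-/- transgenic mice and 13.39, 13.42 and 13.47 in +/+ transgenic mice (-2.66 ± 0.58, adjusted p = 0.000493). Gnat1, the rod transducin alpha subunit, was the rod gene that missed the threshold, at 13.66, 13.48, 11.63 and 12.38 in Rorb-/- transgenic mice and 14.00, 13.96 and 14.00 in +/+ transgenic mice (-1.20 ± 0.55, adjusted p = 0.0889). It passed with array weights (-1.54, adjusted p = 0.0212) and without Rorb-/-;CrxpNrl replicate 1 (-1.49, adjusted p = 0.0403). Its level in +/+ transgenic mice lay close to the array maxima. The remaining members included the channel subunits Cnga1 (-2.35) and Cngb1 (-2.45) and the exchanger Slc24a1 (-2.55), while Sag, the rod arrestin, had the smallest fall at -0.67.

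Genes of the photoreceptor outer segment, the stack of light-sensing discs, and of its upkeep moved with the rod genes. Of 21 measured members 20 fell and 0 rose, with a median of -1.78, and the groups did not overlap in 18. Fscn2, an actin-bundling protein of photoreceptors, had 5.35, 5.15, 4.14 and 4.09 in Rorb-/- transgenic mice and 9.36, 9.32 and 9.52 in +/+ transgenic mice (-4.72 ± 0.24, adjusted p = 3.19e-15), with nearly 4 log2 units between the nearest mice of the 2 groups. Rdh12, a photoreceptor retinol dehydrogenase, had 10.26, 9.92, 7.86 and 8.71 in Rorb-/- transgenic mice and 12.06, 11.86 and 12.01 in +/+ transgenic mice (-2.79 ± 0.32). Falls of 2 or more were also found for the interphotoreceptor matrix gene Impg1 (-2.63), the polarity gene Crb1 (-2.38), the axonemal genes Rp1 (-2.25) and Rp1l1 (-2.06), and the disc genes Prom1 (-2.0) and Prcd (-2.0). Spata7 was the member that was not called.

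Prph2, the peripherin of the disc rim, had 5.87, 4.42, 4.17 and 4.36 in Rorb-/- transgenic mice and 10.05, 9.10 and 12.78 in +/+ transgenic mice, a difference of -5.94 ± 1.39 (adjusted p = 0.00106). The groups did not overlap, but this probe set varied widely among mice of most groups of the series. At P28 without the transgene it ranged from 5.07 to 11.25 in Rorb-/- and 6.66 to 8.86 in +/+. At P14 it ranged from 4.47 to 7.76 in Rorb-/-;CrxpNrl and, more narrowly, 6.46 to 6.75 in +/+;CrxpNrl, and from 4.94 to 11.04 in Rorb-/- and 7.32 to 12.71 in +/+. Rom1, its partner in the disc rim, had a difference of -1.78.

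Cone transcripts mostly rose, to levels that stayed below those of mice without the transgene. Of 16 measured cone genes 11 rose and 2 fell, with a median of 1.29, and the groups did not overlap in 11 on the higher side, beside 19.6% of all genes. Arr3, the cone arrestin, had 9.82, 9.04, 8.09 and 8.0 in Rorb-/- transgenic mice and 4.33, 4.48 and 4.44 in +/+ transgenic mice (4.32 ± 0.47, adjusted p = 1.72e-08), and its other probe sets differed by 3.29 and 1.38. Pde6h, the inhibitory subunit of the cone phosphodiesterase, had 9.81, 9.19, 8.70 and 7.86 in Rorb-/- transgenic mice and 4.80, 4.57 and 4.97 in +/+ transgenic mice (4.11 ± 0.53). Pde6c, the catalytic subunit, had 9.36, 9.27, 8.99 and 8.17 in Rorb-/- transgenic mice and 5.69, 5.95 and 5.44 in +/+ transgenic mice (3.26 ± 0.29). These genes sat well above +/+;CrxpNrl in all 4 mice, with replicate 4 lowest for Pde6h, Pde6c and Arr3.

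Gnat2, the cone transducin alpha subunit whose promoter is printed above, had 10, 9.81, 10.02 and 9.76 in Rorb-/- transgenic mice and 7.71, 7.75 and 7.95 in +/+ transgenic mice (2.10 ± 0.21, adjusted p = 3.76e-09). Unlike the rod genes, it lay within 0.3 log2 units in the 4 Rorb-/-;CrxpNrl mice. The cone channel subunit Cngb3 rose by 2.34 and Otop3, which encodes a proton channel, by 2.82. The 4 genotypes at P28 put the rise in place: the mean of the 16 cone genes was 8.13 (range over mice 7.72 to 8.67) in Rorb-/- transgenic mice and 6.76 (6.68 to 6.84) in +/+ transgenic mice, and 11.27 (11.19 to 11.34) in Rorb-/- and 9.46 (9.40 to 9.54) in +/+.

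The cone opsins did not follow the rest of the list closely. Opn1sw, the short-wavelength opsin, had 8.06, 7.47, 6.42 and 5.74 in Rorb-/- transgenic mice and 4.90, 5.24 and 4.51 in +/+ transgenic mice (2.04 ± 0.60, adjusted p = 0.00825). The groups did not overlap, but the gene was not called with weighted arrays (1.52, adjusted p = 0.086) and with pigment epithelium and lens transcripts as covariates (1.88, adjusted p = 0.0941), and the gene's dimmer probe set averaged 4.44 in Rorb-/- transgenic mice and 4.43 in +/+ transgenic mice. Opn1mw, the middle-wavelength opsin, had 5.28, 4.99, 5.00 and 5.17 in Rorb-/- transgenic mice and 5.94, 5.55 and 5.6 in +/+ transgenic mice (-0.59 ± 0.27, adjusted p = 0.0988). Its groups did not overlap, and it was called lower in a fit of the compared groups alone (adjusted p = 0.0101). Both opsins lay far below their means without the transgene, which were 13.63 in Rorb-/- and 12.24 in +/+ for Opn1sw and 12.48 in Rorb-/- and 11.16 in +/+ for Opn1mw. The 2 cone-list members that fell were Guca1a (-1.76), a cyclase activator that rods make as well, and the potassium channel subunit gene Kcne2 (-0.30). They were named after their values were seen.

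**Figure D2:**
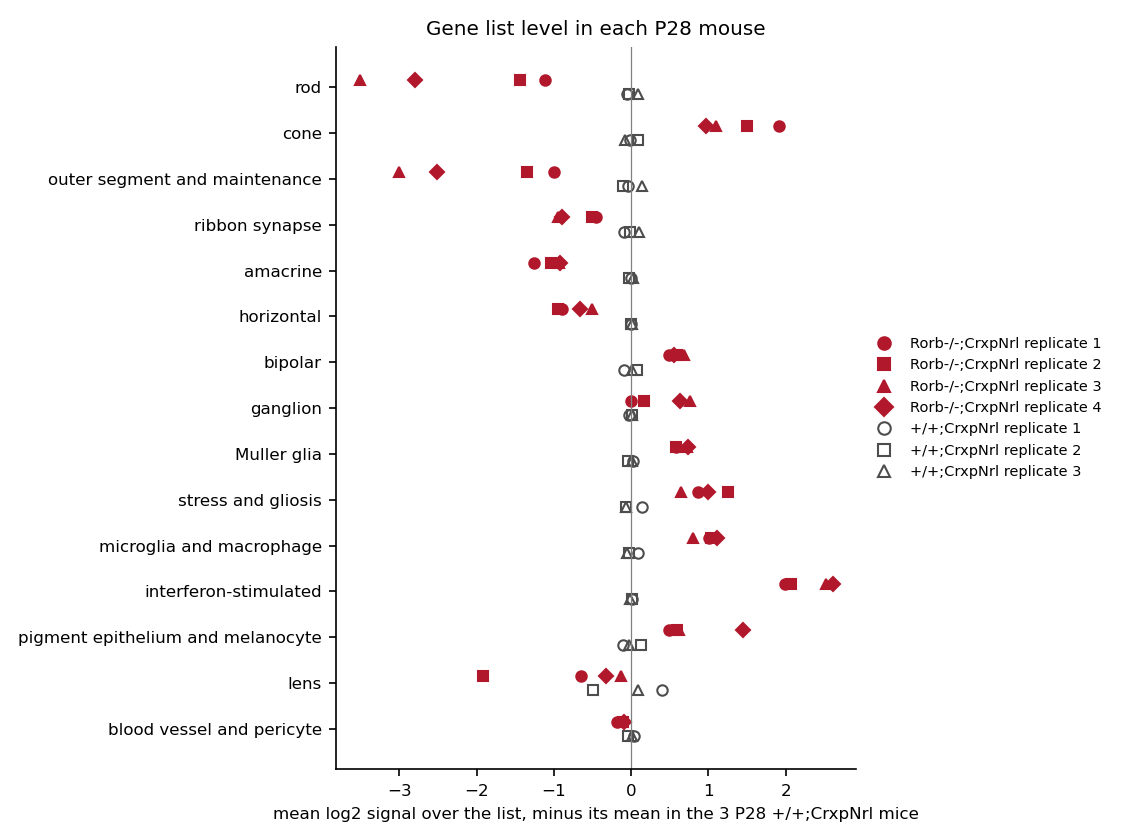
Mean log2 signal over the measured genes of a list in each P28 mouse, minus the mean of the 3 +/+;CrxpNrl mice (horizontal axis), with 1 row per list, filled points for Rorb-/-;CrxpNrl above open points for +/+;CrxpNrl and 1 symbol shape per replicate number. In the rod row replicates 3 and 4 of Rorb-/-;CrxpNrl lie farther to the left than replicates 1 and 2.

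Among 17 transcription factor genes of photoreceptors 10 fell and 2 rose, with a median of -0.63. The falls include that of Rorb itself. Nrl, Esrrb and Samd7 were counted in the rod list as well, and Rxrg in the cone list. Besides Rorb, Nrl and Esrrb, the MADS-box gene Mef2c had 8.18, 8.04, 5.93 and 6.73 in Rorb-/- transgenic mice and 10.07, 10.43 and 9.92 in +/+ transgenic mice (-2.92 ± 0.36), and Samd7, a rod repressor that works with Polycomb proteins, had 8.80, 8.35, 5.62 and 7.27 in Rorb-/- transgenic mice and 10.06, 9.95 and 10.18 in +/+ transgenic mice (-2.55 ± 0.40). Crx had 11.52, 11.58, 10.28 and 10.54 in Rorb-/- transgenic mice and 12.19, 12.32 and 12.31 in +/+ transgenic mice (-1.29 ± 0.18, adjusted p = 8.7e-07), and its other probe set differed by -1.23. In Nrl, Esrrb, Mef2c, Samd7 and Crx the groups were separate and replicates 3 and 4 were lowest. Since the Crx promoter drives the transgene, Crx and Nrl are printed side by side, and their relation was not tested.

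Smaller falls were those of Casz1 (-1.43), Pias3 (-1.26), Neurod1 (-0.58) and Mef2d (-0.40), of which Casz1 (adjusted p = 0.0517), Neurod1 (0.101) and Mef2d (0.078) were not called in a fit of the compared groups alone. Neurod1 (adjusted p = 0.17) and Mef2d (0.0648) were not called with pigment epithelium and lens covariates either, and Mef2d was not called without +/+;CrxpNrl replicate 3 (0.0647). The retinoid X receptor gene Rxrg, a cone gene, rose by 1.54 ± 0.14, with 7.87, 7.45, 7.67 and 7.45 in Rorb-/- transgenic mice and 6.07, 6.18 and 5.95 in +/+ transgenic mice, and Sall3 rose by 0.36 ± 0.13 (adjusted p = 0.0302). The Sall3 call was lost under 10 alternatives, among them the shift to equal medians (adjusted p = 0.0545), array weights (0.24, adjusted p = 0.168), the compared groups alone (adjusted p = 0.118) and 5 of the fits that left out a mouse. Differences that did not pass were -0.63 for Prdm1 (adjusted p = 0.0624), -0.49 for the cone receptor gene Thrb (0.0615), -0.22 for Rora (0.0693), 0.15 for Rax and 0.18 for Otx2. Apart from Rax, these depended on the fit. Prdm1 was called lower with array weights (-0.99, adjusted p = 0.000788), with both other scalings and without Rorb-/-;CrxpNrl replicate 1 (-0.88, adjusted p = 0.00545) or replicate 2 (-0.85, adjusted p = 0.00944). Thrb was called lower with array weights (-0.55, adjusted p = 0.0266) and without replicate 1 (-0.65, adjusted p = 0.012), and Rora with the mean of its probe sets (-0.36, adjusted p = 0.00224) and without replicate 1 (-0.30, adjusted p = 0.00809). Otx2 was called higher without replicate 4 (0.26, adjusted p = 0.0418). Otx2, which precedes Crx in photoreceptor precursors, thus kept a mean near 11.6 in Rorb-/- transgenic mice and 11.4 in +/+ transgenic mice.

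Genes of the ribbon synapse, through which photoreceptors and bipolar cells release glutamate, fell in 11 of 18 measured members and rose in 1, with a median of -0.54. Cabp4, a calcium-binding regulator of the photoreceptor calcium channel, had 8.93, 7.99, 6.33 and 7.10 in Rorb-/- transgenic mice and 10.11, 10.34 and 10.04 in +/+ transgenic mice (-2.58 ± 0.31, adjusted p = 8.53e-08). The active-zone gene Rims1 fell by 1.67 ± 0.13 and the complexin gene Cplx4 by 1.5 ± 0.27. Rims1 was lowest in replicate 1 (7.79) and highest in replicate 3 (8.57), an order opposite to that of the rod genes. In the retinoid cycle, which regenerates the visual chromophore, 5 of 13 measured genes fell and 3 rose. The fallen ones included Abca4 (-1.83 ± 0.27), the retinal transporter of the disc, and Rbp3 (-1.39 ± 0.27), the retinoid carrier between photoreceptors and pigment epithelium.

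Amacrine and horizontal cell transcripts fell. Of 23 measured amacrine genes 13 fell and 4 rose, with a median of -0.63. Gad1, a GABA-synthesising enzyme, had 5.31, 6.53, 7.60 and 7.45 in Rorb-/- transgenic mice and 11.66, 11.64 and 11.58 in +/+ transgenic mice (-4.90 ± 0.31, adjusted p = 6.29e-13). The AP-2 transcription factor gene Tfap2a had 4.48, 4.68, 4.64 and 4.52 in Rorb-/- transgenic mice and 8.58, 8.82 and 8.73 in +/+ transgenic mice (-4.13 ± 0.14), and Tfap2b had 6.31, 6.76, 6.86 and 7.0 in Rorb-/- transgenic mice and 10.75, 10.65 and 10.70 in +/+ transgenic mice (-3.97 ± 0.15). Tfap2c, of the same family, differed by -3.83 ± 0.14 and lay near the low end of the scale in Rorb-/-;CrxpNrl. The AP-2 genes lay within 0.7 log2 units among the 4 mice, and Gad1 spread over more than 2, with replicate 1 lowest.

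Other amacrine members that fell were the acetylcholine vesicle transporter gene Slc18a3 (-2.19), the glycine transporter gene Slc6a9 (-1.73), Meis2 (-1.73) and the homeobox gene Barhl2 (-1.39). The 4 that rose were named after their values were seen: Penk, the enkephalin precursor, at 1.83, Gad2, the second GABA-synthesising enzyme, at 1.32, the substance P precursor Tac1 at 0.95 and Nos1 at 0.47. Gad2 had 8.97, 9.22, 9.34 and 9.57 in Rorb-/- transgenic mice and 8.0, 7.94 and 7.92 in +/+ transgenic mice, so the 2 GABA-synthesising genes moved in opposite directions in all 4 mice. Of 8 horizontal cell genes 6 fell and 0 rose, with a median of -0.72. Lhx1, a LIM homeobox gene of horizontal cells, had 5.31, 5.15, 4.87 and 4.72 in Rorb-/- transgenic mice and 6.55, 6.99 and 6.80 in +/+ transgenic mice (-1.77 ± 0.19). Onecut1 fell by 1.71 ± 0.27 and the calcium-binding protein gene Calb1 by 0.89 ± 0.16.

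Bipolar transcripts rose more often than they fell. Of 20 measured bipolar genes 11 rose and 2 fell, with a median of 0.71. Vsx1, a homeobox gene of cone bipolar cells, had 8.48, 8.37, 8.53 and 8.69 in Rorb-/- transgenic mice and 7.0, 6.80 and 7.11 in +/+ transgenic mice (1.54 ± 0.14, adjusted p = 8.1e-10). Irx5 rose by 1.44 ± 0.15 and the secretagogin gene Scgn, also of cone bipolar cells, by 1.37 ± 0.09. The bipolar members that fell were Prkca, the protein kinase used to stain rod bipolar cells (-0.75), and Sebox (-0.49). Of 17 ganglion cell genes 6 rose and 0 fell, with a median of 0.29, so that the share called lies near the 36.6% of all genes, the largest differences being those of the growth cone gene Gap43 (1.24 ± 0.14), Elavl4 (0.82 ± 0.13) and Rbpms (0.78 ± 0.20). Elavl4 was not called with the probe sets of shared sequence left out (0.21, adjusted p = 0.476).

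Müller glia, the radial glia of the retina, had 12 of 16 measured genes higher and 2 lower, with a median of 0.81. Apoe, which carries lipids, had 13.43, 13.49, 13.34 and 13.56 in Rorb-/- transgenic mice and 11.37, 11.34 and 11.36 in +/+ transgenic mice (2.10 ± 0.07, adjusted p = 1.16e-18). Dkk3 rose by 1.5 ± 0.09 and the glutamate transporter gene Slc1a3 by 1.48 ± 0.21. The 2 lower members were the carbonic anhydrase gene Car2 (-0.98) and Glul, the glutamine synthetase gene (-0.28). In the list of stress and gliosis genes 11 of 18 rose and 1 fell, with a median of 0.74. B2m, the light chain of class I MHC molecules, rose by 3.55 ± 0.29, the transcription factor gene Cebpd by 2.44 ± 0.17 and the ceruloplasmin gene Cp by 2.18 ± 0.10. Gfap, the intermediate filament of reactive glia, had 8.58, 9.17, 7.79 and 9.16 in Rorb-/- transgenic mice and 6.35, 6.61 and 6.52 in +/+ transgenic mice (2.18), all 4 mice being higher.

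Interferon-stimulated genes, which cells switch on during antiviral and inflammatory signalling, held the 3 largest rises among the named genes. Of 17 measured members 16 rose and 0 fell, with a median of 2.02. Ifit1 had 7.98, 8.46, 8.98 and 8.83 in Rorb-/- transgenic mice and 3.87, 4.18 and 4.23 in +/+ transgenic mice (4.47 ± 0.57, adjusted p = 3.13e-07). Usp18, which removes the ubiquitin-like ISG15 from proteins, had 7.61, 8.26, 8.65 and 8.85 in Rorb-/- transgenic mice and 4.11, 3.72 and 3.83 in +/+ transgenic mice (4.46 ± 0.66), and Oasl2 had 9.57, 9.90, 10.37 and 10.57 in Rorb-/- transgenic mice and 5.74, 5.80 and 5.4 in +/+ transgenic mice (4.45 ± 0.41). For all 3 the groups were far apart, and replicates 3 and 4, which had the lowest rod levels, were higher than replicates 1 and 2. The signal transducers of the pathway were measured too, and Irf7 (1.34) and Irf9 (2.08) rose. Zbp1 was the member that was not called (0.12). The list was drawn up after an earlier look at these arrays and is no independent evidence of its direction.

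Of 16 genes of microglia and macrophages, the resident and infiltrating phagocytes, 14 rose and 0 fell, with a median of 0.96. The complement genes C1qc and C1qa rose by 1.98 ± 0.18 and 1.94 ± 0.14, and the cathepsin gene Ctss by 1.54 ± 0.15. C1qa had 8.01, 8.25, 8.07 and 8.50 in Rorb-/- transgenic mice and 6.37, 6.32 and 6.13 in +/+ transgenic mice. The mean of the list lay between 6.21 and 6.51 in Rorb-/- transgenic mice and between 5.35 and 5.49 in +/+ transgenic mice. This marker list shared the direction of the interferon-stimulated and gliosis lists between the groups, but not 1 order of the Rorb-/- transgenic mice. Replicate 3 had the lowest mean of the microglial (6.21) and gliosis (6.74) lists. In the interferon-stimulated list it had 7.92, above replicates 1 (7.39) and 2 (7.47). The part of microglia in the rise of the other lists was not tested. Of 12 apoptosis genes 6 rose and 0 fell, led by Tnfrsf1a (1.23 ± 0.11), Casp8 (1.07 ± 0.14) and Casp1 (0.96 ± 0.17).

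**Figure D3:**
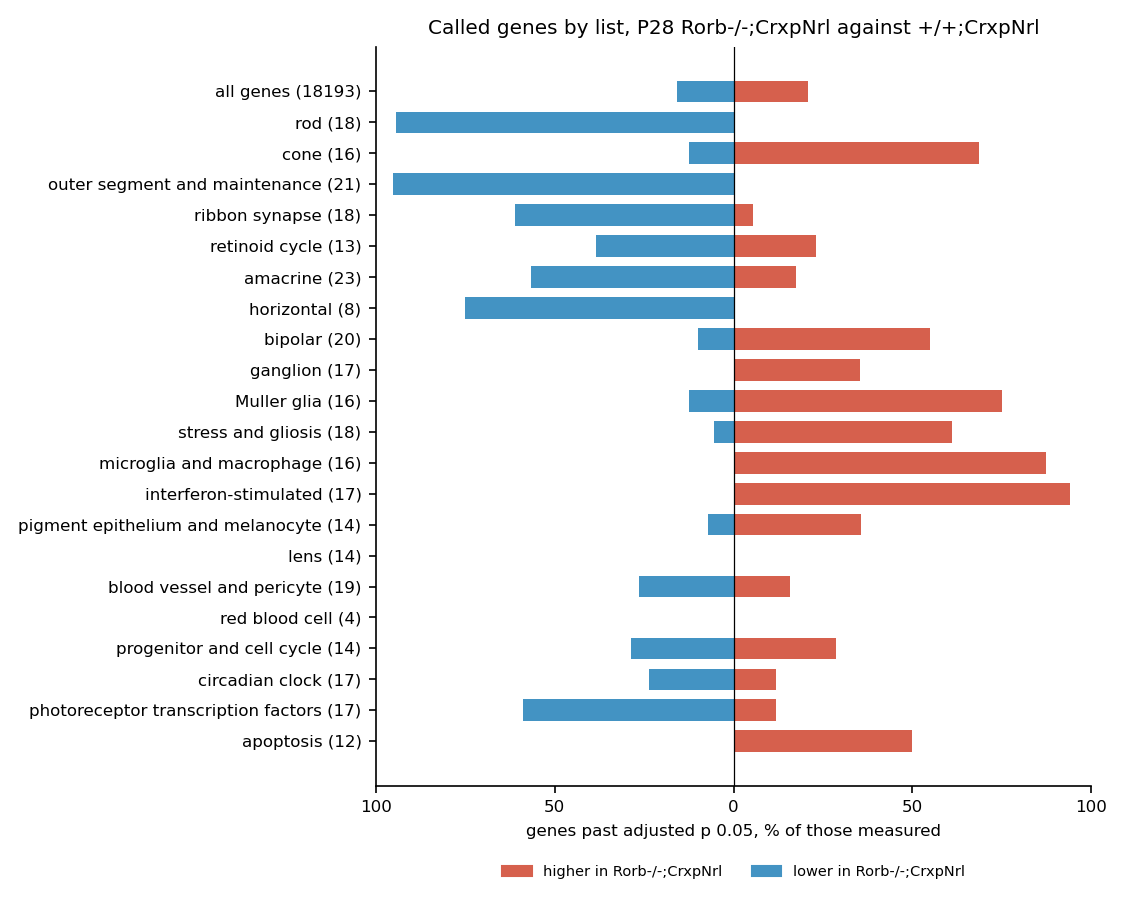
Share of the measured genes of each list past adjusted p 0.05, higher to the right and lower to the left, as a percentage, with all 18193 genes in the top row. The rod, outer segment and horizontal bars extend to the lower side alone, and the interferon-stimulated, microglia, ganglion and apoptosis bars to the higher side alone.

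Markers of neighbouring tissues were followed as well. Of 14 genes of pigment epithelium and melanocytes 5 rose and 1 fell, which lies near the 36.6% of all genes called. The list mean was 6.49, 6.59, 6.62 and 7.45 in Rorb-/-;CrxpNrl and 5.9, 6.13 and 5.97 in +/+;CrxpNrl. The pigment genes Dct (2.31 ± 0.39), Pmel (2.18 ± 0.30) and Tyrp1 (1.92 ± 0.39) rose, whereas Rpe65 and Rgr of the same list differed by 0.14 and 0.01. Replicate 4 was the highest of the 4 mice in 12 of the 14. In the lens list 0 of 14 genes were called, its mean being 7.73, 6.46, 8.24 and 8.05 in Rorb-/-;CrxpNrl and 8.78, 7.88 and 8.46 in +/+;CrxpNrl, and differences were -1.19 ± 1.28 for Crybb2, -1.08 ± 1.49 for Cryba1 and -1.07 ± 1.47 for Crygs. Lens transcripts were thus present in both groups. With the means of both lists as covariates 1209 genes changed at least 2-fold, beside 1329 without.

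The 4 red blood cell genes had 0 calls, with Alas2 (-0.24), Epb42 (-0.23) and Slc4a1 (-0.17) at low levels in both groups. Alas2 was called with array weights (-0.39, adjusted p = 0.029) and without Rorb-/-;CrxpNrl replicate 2 (-0.46, adjusted p = 0.00606). Of 19 vessel and pericyte genes 5 fell and 3 rose, which lies near the share of all genes called. Kdr, a receptor of vascular endothelial growth factor, rose by 1.95 ± 0.13, the junction gene Esam rose by 1.15 ± 0.13, and the pericyte channel gene Abcc9 fell by 1.54 ± 0.12. Of 14 progenitor and cell cycle genes 4 rose and 4 fell, among them Hmgb2 (-1.86 ± 0.20), Ccna2 (-1.47 ± 0.31) and the Wnt modulator gene Sfrp2 (1.6 ± 0.24), and Hmgb2 was not called with the probe sets of shared sequence left out (-0.16, adjusted p = 0.306). Of 17 clock genes 2 rose and 4 fell, with Arntl, which encodes the clock activator BMAL1, falling by 1.06 ± 0.13, and with rises for Per2 (0.69 ± 0.15) and Tef (0.56 ± 0.10). Tef was not called with the mean of its probe sets (0.39, adjusted p = 0.128). The 6 calls among 17 clock genes lie near the 36.6% called over all genes.

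By size, the fall of Nt5e exceeded all others among the named genes. Nt5e, the ecto-nucleotidase CD73 on the surface of rods, had 3.93, 3.75, 3.93 and 3.66 in Rorb-/-;CrxpNrl and 10.40, 10.56 and 10.60 in +/+;CrxpNrl (-6.70 ± 0.17, adjusted p = 1.64e-21). Its values in Rorb-/-;CrxpNrl sit at the low end of the scale, so the difference is a lower bound. Its other probe sets differed by -2.48 and -0.06. The last of these lay near the low end in both groups, with means of 4.24 in Rorb-/-;CrxpNrl and 4.30 in +/+;CrxpNrl. Prph2, Gad1, Fscn2 and the AP-2 genes came next together with Sh2d1a, which encodes a signalling adaptor of lymphocytes (-4.86 ± 0.22), Pdzph1 (-4.49 ± 0.57) and Tac2, the neurokinin B precursor (-3.71 ± 0.16). Pdzph1 had 7.69, 7.20, 4.16 and 5.65 in Rorb-/-;CrxpNrl and 10.76, 10.33 and 10.90 in +/+;CrxpNrl, with the same order of mice as the mean of the rod list.

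Of the 10 largest rises among the named genes, 4 were of genes in no list. Fmod, the matrix proteoglycan fibromodulin, had 9.79, 10.32, 10.11 and 10.21 in Rorb-/-;CrxpNrl and 6.91, 5.38 and 5.19 in +/+;CrxpNrl (4.28 ± 0.55), and its 5 other probe sets differed by 2.51 to 3.29. Pnoc, the nociceptin precursor, had 7.89, 7.86, 8.36 and 8.48 in Rorb-/-;CrxpNrl and 4.35, 4.65 and 4.67 in +/+;CrxpNrl (3.59 ± 0.14). Sst, the somatostatin precursor, had 9.51, 10.13, 9.64 and 9.58 in Rorb-/-;CrxpNrl and 5.92, 6.30 and 6.18 in +/+;CrxpNrl (3.58 ± 0.24). Ifitm3, an interferon-inducible membrane protein gene, rose by 3.73 ± 0.36. Rtp4, a member of the interferon-stimulated list, completed the 10 with 3.91 ± 0.54.

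The 4 Rorb-/-;CrxpNrl mice differed widely from each other in rod, outer segment and lens genes. The mean of the rod list was 11.22, 10.90, 8.82 and 9.54 in Rorb-/-;CrxpNrl and 12.28, 12.30 and 12.42 in +/+;CrxpNrl, and the median SD of a rod gene was 1.15 in Rorb-/-;CrxpNrl and 0.0705 in +/+;CrxpNrl. The median SD was 1.11 in Rorb-/-;CrxpNrl and 0.0898 in +/+;CrxpNrl over outer segment genes, 0.997 in Rorb-/-;CrxpNrl and 0.565 in +/+;CrxpNrl over lens genes, and 0.445 in Rorb-/-;CrxpNrl and 0.163 in +/+;CrxpNrl over cone genes. Replicate 3 was lowest in 17 of 18 rod genes and 19 of 21 outer segment genes, and replicate 1 was highest in 15 and 19 of them. The cone list ran partly with the rods: replicate 1 was highest in 12 of 16 genes and replicate 4 lowest in 10. Amacrine genes ran the other way, replicate 1 being lowest in 15 of 23, and so did ganglion cell genes, replicate 3 being highest in 13 of 17. Over the 500 genes lower by at least 2-fold, the median difference from the +/+;CrxpNrl mean was -1.11, -1.20, -1.89 and -1.77 in the 4 mice, and over the 829 higher ones it was 1.21, 1.41, 1.47 and 1.51, which describes genes chosen for their difference.

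Rorb loss without the transgene, P28 Rorb-/- against P28 +/+, gave 1012 genes changed at least 2-fold (5.56%), 620 (3.41%) higher and 392 (2.15%) lower, from other mice. Of the 1329 genes changed on the transgenic background 745 were also changed there in the same direction (56.1% of the 1329 and 73.6% of the 1012), and 0 in the opposite one. The difference of the 2 Rorb effects, with minus without the transgene, was called for 996 genes (5.47%), 537 positive (2.95%) and 459 negative (2.52%), and 173 of them (0.951%) differed at least 2-fold, 42 (0.231%) positive and 131 (0.720%) negative. In the rod list 0 of 18 differences were called, although their median was 1.27 and 13 of the 18 were positive. Pde6b differed by -2.66 with the transgene and -4.61 without (difference 1.95 ± 0.79, adjusted p = 0.15), Kcnj14 by -3.34 and -5.01 (1.68 ± 0.58, adjusted p = 0.086), and Nrl by -2.40 and -3.73 (1.34 ± 0.59, adjusted p = 0.2). Each of these mean falls was smaller with the transgene, by a difference that missed the threshold. The 4 mice did not share this. The rod list mean ranged from 9.24 to 9.59 in P28 Rorb-/- mice. In Rorb-/-;CrxpNrl, replicates 1 and 2 lay above that range (11.22 and 10.90), and replicates 3 and 4 did not (8.82 and 9.54). Rorb's own difference was -2.71 with the transgene and -1.01 without (-1.70 ± 0.28, adjusted p = 0.000435).

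In the cone list 1 difference was positive and 6 were negative. Opn1mw differed by -0.59 with the transgene and 1.32 without (-1.91 ± 0.37, adjusted p = 0.00254), and the other negative ones, named after their values were seen, were Guca1a (-1.55), Kcne2 (-1.82), Ccdc136 (-2.05), Gngt2 (-1.49) and Gnb3 (-0.61). Kcne2 had means of 7.64 in Rorb-/-;CrxpNrl and 7.93 in +/+;CrxpNrl, and 11.37 in Rorb-/- and 9.84 in +/+. Arr3 had the positive one, 4.32 with the transgene and 1.94 without (2.38 ± 0.64, adjusted p = 0.0243), but its 3 probe sets gave 2.38, 1.22 and -1.26, so the sign depends on the probe set. Its level in Rorb-/- (13.15) lay near the top of the scale. The outer segment list had 4 negative differences and 0 positive, Pcdh15 (-2.02), Rp1l1 (-1.77), Tulp1 (-1.45) and Pde6d (-0.68), all called lower with the transgene and none called lower without it. Rbp3 likewise differed by -1.39 with the transgene and 0.11 without (-1.5 ± 0.37, adjusted p = 0.0154).

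**Figure D4:**
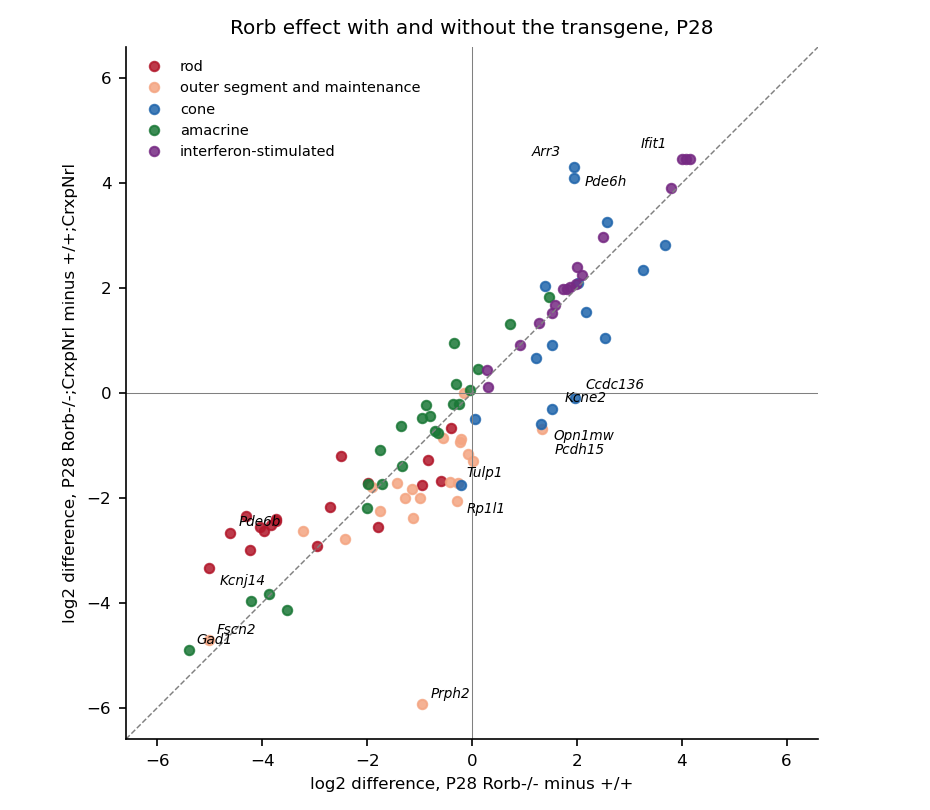
Log2 difference of each list gene at P28, Rorb-/-;CrxpNrl minus +/+;CrxpNrl on the vertical axis and Rorb-/- minus +/+ on the horizontal axis, with the line of equal differences dashed. Interferon-stimulated and most amacrine genes lie along the line, most rod genes lie above it, and most outer segment genes lie below it.

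Among transcription factors 5 of 17 differences were negative, that of Rorb itself included, and 0 positive. Crx differed by -1.29 with the transgene and -0.24 without (-1.05 ± 0.24, adjusted p = 0.00846), Prdm1, which holds back bipolar genes in photoreceptor precursors, by -0.63 and 1.25 (-1.88 ± 0.36), Mef2d by -0.40 and 0.30 (-0.70 ± 0.16) and Sall3 by 0.36 and 1.61 (-1.24 ± 0.18). The Crx difference was not called in a fit restricted to these groups (adjusted p = 0.0937). In the amacrine list 4 differences were positive and 0 negative, and Gad1 (0.50 ± 0.43) and Tfap2b (0.25 ± 0.21) were not among them, nor was any of the 17 interferon-stimulated or 16 microglial genes. Lhx1 fell further with the transgene (-1.77 against -0.30, difference -1.47 ± 0.26) and Calb1 less (-0.89 against -1.89, difference 1.0 ± 0.22).

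Among the named genes, the largest differences between the 2 Rorb effects were those of genes raised further without the transgene. Slco1a5, an organic anion transporter, differed by 0.08 with the transgene and 4.25 without (-4.17 ± 0.20, adjusted p = 4.9e-14), Tph1, a serotonin-synthesising enzyme, by 0.37 and 4.08 (-3.71 ± 0.33), Poteg by 0.69 and 4.15 (-3.47 ± 0.69), the fatty acid binding protein gene Fabp7 by 0.59 and 3.83 (-3.24 ± 0.69), and the myocardin gene Myocd by 0.74 and 3.61 (-2.88 ± 0.38). Slco1a5 and Poteg were near the low end of the scale in both transgenic groups. On the positive side stood the guanylate-binding protein gene Gbp2b (2.84 ± 0.82), Arr3, Samd11 (1.75 ± 0.42), the calcitonin gene-related peptide gene Calcb (1.51 ± 0.41) and Tes (1.45 ± 0.25). Samd11, a partner of Samd7 in rods, fell by 2.14 with the transgene and by 3.89 without, and Gbp2b lost the call without any 1 of 11 of the 15 mice and in a fit of the compared groups alone (adjusted p = 0.106).

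At P14 the same genotypes gave 833 genes changed at least 2-fold (4.58%), 401 (2.20%) higher and 432 (2.37%) lower, and 5471 called at any fold (30.1%), 2960 higher (16.3%) and 2511 lower (13.8%). Of the 1329 changed at P28, 561 were changed at P14 in the same direction (42.2% of the 1329 and 67.3% of the 833) and 4 in the opposite one. The P28 minus P14 difference of the Rorb effect was called for 2280 genes (12.5%), 1561 positive (8.58%) and 719 negative (3.95%), and 437 (2.40%) differed at least 2-fold, 351 (1.93%) positive and 86 (0.473%) negative. The age difference was -0.13 ± 0.23 for Nt5e, -0.07 ± 0.19 for Tfap2a and -0.26 ± 0.64 for Arr3, none of them called. The rod list fell in 12 of 18 genes at P14, with a median of -1.29 beside -2.42 at P28, and 2 of 18 age differences were called, those of Samd7 (-2.17 ± 0.54) and Gngt1 (-1.25). Fscn2 fell by 4.72 at P28 and by 3.38 at P14 (-1.34 ± 0.32), and Crx by 1.29 at P28 beside -0.31 at P14 (-0.98 ± 0.24).

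The interferon-stimulated list was higher in more of its genes at P28. It had 16 of 17 genes higher at P28 and 5 of 17 at P14, medians being 2.02 at P28 and 0.49 at P14, and 11 of the 17 age differences were positive and 0 negative. Ifit1 differed by 4.47 at P28 and 0.50 at P14 (3.97 ± 0.78, adjusted p = 0.0012), Rtp4 by 3.91 and 0.42 (3.50 ± 0.73) and Usp18 by 4.46 and 1.05 (3.41 ± 0.90). Of the microglial genes 14 of 16 were higher at P28 and 13 of 16 at P14, with 0 positive and 2 negative age differences. Cone genes rose in 11 of 16 at both ages. Of their age differences 1 was positive, that of Pde6c (1.59 ± 0.40), and 2 were negative, with a median of -0.04 over the list.

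The pigment list stood out between the ages. At P28 5 of its 14 genes were higher and 1 lower, at P14 0 were higher and 8 lower, and 10 of the 14 age differences were positive, among them Dct (3.45 ± 0.53), Pmel (3.02 ± 0.41) and Tyrp1 (2.78 ± 0.53). The means at P14 behind this were 5.02 in Rorb-/-;CrxpNrl and 7.53 in +/+;CrxpNrl for Rpe65, and 5.79 in Rorb-/-;CrxpNrl and 8.53 in +/+;CrxpNrl for Rgr. Vessel genes went with it, with 15 of 19 lower at P14, 5 at P28 and 9 positive age differences, and so did clock genes, with 10 of 17 lower at P14, 4 at P28 and 10 positive age differences. The part of pigmented tissue in the age differences was not tested. Other age differences of large size were those of Myocd (-2.89 ± 0.38), the channel-trafficking gene Pex5l (-2.38 ± 0.69), Lyz1 (-2.26 ± 0.36), Tecta (-2.25 ± 0.55) and Pdxdc1 (3.56 ± 1.18), of which Lyz1 and Pdxdc1 reversed with another choice of probe sets.

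**Figure D5:**
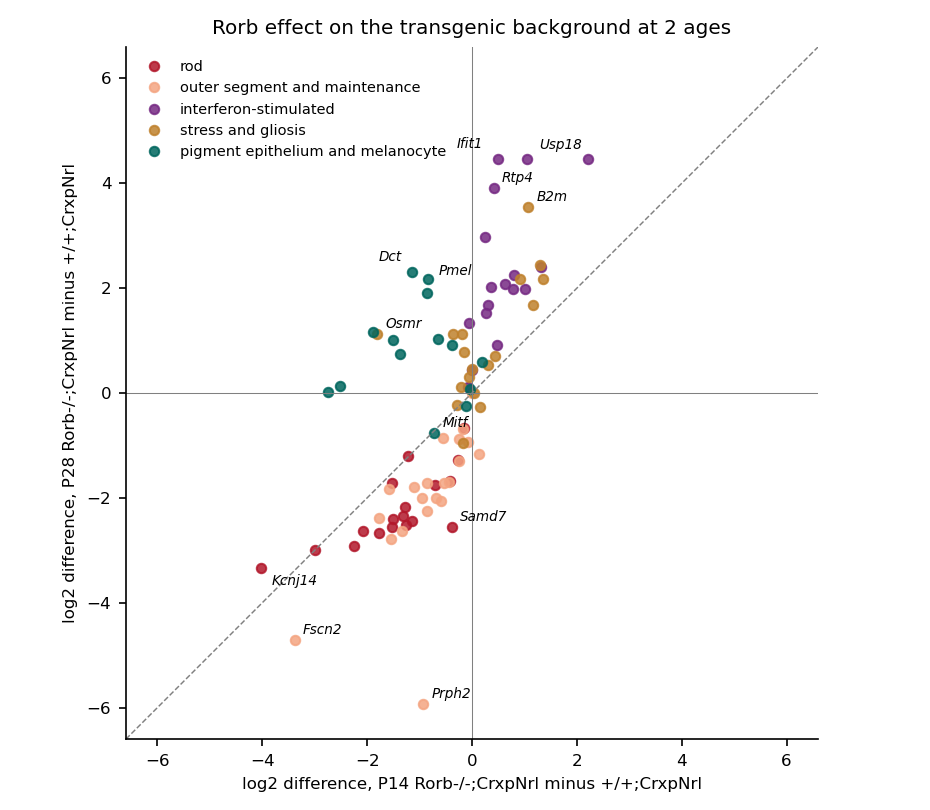
Log2 difference of each list gene, Rorb-/-;CrxpNrl minus +/+;CrxpNrl, with P14 on the horizontal and P28 on the vertical axis and the line of equal differences dashed. Interferon-stimulated genes and most pigment genes lie above the line, and most rod and outer segment genes lie below it.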

How the data were processed

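The deposited values are log2 signals, 1 per probe set and array, made by the authors with RMA (per the submitters' processing notes, version not given). RMA corrects background, normalizes the arrays by quantiles and summarises the probes of a set, so shifts shared by all genes are removed. Per the labels' protocols 5 ug of Trizol-extracted RNA from the 2 snap-frozen retinas of 1 mouse was labelled with biotin per array. The array has 45101 probe sets, of which 34945 with 1 gene symbol were used, and each gene is represented by its brightest probe set, by the mean of 31 arrays (18193 genes, 9010 with more than 1 probe set). Listed symbols that had no such probe set are not analysed here.

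The 31 arrays were fitted together in limma (lmFit and eBayes with trend, limma 3.58.1 in R 4.3.3) with 1 mean per group, so the 8 groups shared an estimate of the spread, and p-values were Benjamini-Hochberg adjusted over all genes. The fit was tested on simulated data. No pair of arrays was identical, and their number limits the precision. Of the sex-linked genes Xist and Eif2s3y, Xist was the higher in 2 of 4 Rorb-/-;CrxpNrl and 1 of 3 +/+;CrxpNrl mice, and a sex covariate was an alternative.

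The comparison, gene lists and rule for names were chosen with earlier results of these data known. The rule names Rorb, Nrl, the 10 largest rises and falls past adjusted p 0.05 without overlap of the groups, the 5 largest differences each way of both interactions, up to 4 members per list by size of difference (here 3, in that order), all photoreceptor transcription factors and Gnat1, Pde6b, Prph2, Opn1sw, Opn1mw, Gnat2 and Arr3. Sex-linked genes and unnamed transcripts were left out. Other list members named in the text fall outside it and were chosen after their values were seen. Promoters are RefSeq sequences (GRCm38.p6) matched by symbol, searched on both strands with Python 3.11.15 and pandas 2.3.3. Figures were drawn with matplotlib 3.10.9. Alternatives were 2 other scalings of the arrays, 2 other choices of probe set, dropping the 40% of genes with the lowest means, calls at any fold, a prior without trend, array weights, sex, a replicate block, a fit of the compared groups alone, each mouse left out in turn and, added after seeing the data, pigment epithelium and lens list means as covariates.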

Additional observations from a re-analysis of the deposited data

Results flagged for a closer look

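In 2 of 103 named genes 1 of the 4 Rorb-/-;CrxpNrl mice lay far from the other 3. Prph2 was at 5.87 in replicate 1, and Tph1 was at 4.65 in replicate 1. Chance alone would mark about 1 in 20 such groups.

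The Rorb effect at P28 differed with and without the transgene, by the test of the difference itself, for 27 named genes, all given here as the effect with minus the effect without the transgene. Among photoreceptor genes and their regulators the values were -1.70 for Rorb, -1.91 for Opn1mw, 2.38 for Arr3, -1.5 for Rbp3, -1.05 for Crx, -1.88 for Prdm1, -0.70 for Mef2d, -1.24 for Sall3 and 1.75 for Samd11. Among genes of inner retinal neurons they were -1.47 for Lhx1, 1.0 for Calb1, 0.85 for Vsx1, 0.54 for Scgn and 0.76 for Elavl4. The peptide genes Pnoc, Sst and Calcb had 1.27, 1.34 and 1.51. Glial, vascular and immune genes had 0.44 for Apoe, 0.70 for Cp, 0.70 for Kdr and 2.84 for Gbp2b. The remaining values were 1.45 for Tes, -4.17 for Slco1a5, -3.71 for Tph1, -3.47 for Poteg, -3.24 for Fabp7 and -2.88 for Myocd. The differences of Arr3, Calcb, Gbp2b and Kdr were not called without at least 1 of the mice, and those of Cp, Crx, Elavl4, Fabp7, Mef2d, Rbp3, Samd11 and Vsx1 were not called under at least 1 other alternative.

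The Rorb effect on the transgenic background differed between P28 and P14, by the test of the difference itself, for 45 named genes, given as P28 minus P14. Photoreceptor genes and regulators had -1.16 for Rorb, -1.34 for Fscn2, -1.59 for Samd11, -2.17 for Samd7, -0.98 for Crx, 1.59 for Pde6c and 0.83 for Rims1. Interferon-stimulated and related genes had 3.97 for Ifit1, 3.41 for Usp18, 2.25 for Oasl2, 3.50 for Rtp4, 2.99 for Ifitm3, 2.90 for Gbp2b and 2.48 for B2m. Genes of stress, glia and cell death had 1.14 for Cebpd, 0.83 for Cp, 0.29 for Apoe, 0.86 for Dkk3, 0.76 for Tnfrsf1a, 0.63 for Casp8 and 0.75 for Casp1. Neuronal genes had 1.63 for Calb1, 0.70 for Vsx1, 0.66 for Scgn, 0.60 for Elavl4, 0.85 for Rbpms, 1.89 for Pnoc, 1.65 for Calcb and -2.38 for Pex5l. Pigment genes had 3.45 for Dct, 3.02 for Pmel and 2.78 for Tyrp1, vessel genes 0.72 for Kdr and 1.25 for Esam, and clock genes -0.77 for Arntl, 0.83 for Per2 and 0.64 for Tef. The others were -1.41 for Sh2d1a, 1.81 for Tes, -1.46 for Tph1, -2.89 for Myocd, 3.56 for Pdxdc1, -2.26 for Lyz1, -2.25 for Tecta and -1.49 for Hmgb2. The age differences of Apoe, Casp1, Casp8, Elavl4, Pdxdc1, Pex5l, Rbpms and Vsx1 were not called without at least 1 of the mice, and those of Arntl, Calcb, Crx, Hmgb2, Samd7, Samd11 and Tef under at least 1 other alternative.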

How the results depend on the processing

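Counts of genes changed at least 2-fold stayed within 1.5 times under the alternatives other than those given here. With no fold requirement the counts were 6651 (3762 higher, 2889 lower) for P28 Rorb-/-;CrxpNrl against +/+;CrxpNrl, 5657 (2889 and 2768) for P28 Rorb-/- against +/+, 996 (537 and 459) for the difference with minus without the transgene, 5471 (2960 and 2511) for the P14 comparison and 2280 (1561 and 719) for the difference of P28 minus P14. With array weights the difference with minus without the transgene had 305 genes (72 higher, 233 lower) in place of 173 (42 and 131), and the age difference had 191 lower in place of 86. In a fit of the compared groups alone 26 were higher in the transgene difference. Leaving out each mouse in turn gave 1209 to 1479 genes (773 to 922 higher, 427 to 557 lower) for the main comparison, 1006 to 1026 (610 to 640, 381 to 410) without the transgene, 140 to 283 (31 to 75, 109 to 208) for the difference with minus without it, 776 to 914 (386 to 445, 388 to 469) at P14 and 351 to 651 (291 to 473, 53 to 178) for the age difference. Without Rorb-/-;CrxpNrl replicate 1 the transgene difference had 283 genes (75 and 208) and the age difference 178 lower, which was 135 without replicate 2 and 53 without replicate 3. Signs reversed for Crygs (0.0144 with pigment epithelium and lens covariates, added after seeing the data), Fabp7 (-0.0128 with array weights), Pdxdc1 (-0.0603 at P28 and -0.0485 between ages with the mean of all probe sets), and, without probe sets of shared sequence, for the Arr3 transgene difference (-1.26) and the Lyz1 age difference (0.14). The cause was not tested. Equal replicate numbers did not pair the mice (correlations of deviations 0.037, 0.061 and -0.0016), and with the replicate block the main comparison had 1319 genes (820 higher, 499 lower). It changed no count by more than 1.5 times. Signals near the low and high ends of the scale limit the sizes of the differences.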

Other observations

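Further families, put together after values had been seen, were counted for Rorb-/-;CrxpNrl against +/+;CrxpNrl. Over all genes 20.7% rose and 15.9% fell. Of 17 measured neuropeptide genes 11 rose and 3 fell, with a median of 1.29, and 2 of the rises, Penk and Tac1, are those of the amacrine list. Pdyn, the dynorphin precursor, had 9.01, 8.43, 9.12 and 9.01 in Rorb-/-;CrxpNrl and 5.59, 5.48 and 5.57 in +/+;CrxpNrl. Adcyap1, the precursor of the peptide PACAP, had 8.30, 8.12, 8.89 and 8.73 in Rorb-/-;CrxpNrl and 5.53, 5.70 and 5.55 in +/+;CrxpNrl. Pomc, the precursor of melanocortins, had 6.6, 6.15, 6.17 and 6.16 in Rorb-/-;CrxpNrl and 7.44, 7.37 and 7.31 in +/+;CrxpNrl. Of 11 small leucine-rich proteoglycan genes of the matrix 6 rose and 1 fell, with a median of 1.11. Among them was Prelp at 9.99, 10.26, 10.24 and 10.36 in Rorb-/-;CrxpNrl and 6.98, 6.77 and 7.0 in +/+;CrxpNrl. Kera, Omd and Epyc lay near the low end of the scale in both groups. All 6 measured guanylate-binding protein genes, which interferon induces, rose, with a median of 2.88. The family of Ifitm3 was less uniform: of 7 measured Ifitm genes 3 rose and 0 fell, with a median of 0.17.

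Of 11 measured class I MHC heavy chain genes 1 rose and 0 fell, beside 36.6% of all genes called. The median was 0.08, the difference of H2-M9. H2-M9, H2-D4, H2-Q10, H2-Q2 and H2-Q5 lay near the low end of the scale in both groups. H2-D1 is represented by the brightest of 9 probe sets and H2-K1 by the brightest of 4, both of shared sequence. The count therefore does not show whether class I heavy chains as a set changed. H2-D1 had 5.6, 6.0, 10.19 and 5.95 in Rorb-/-;CrxpNrl and 8.07, 8.20 and 6.30 in +/+;CrxpNrl, and H2-K1 had 7.20, 6.84, 9.62 and 7.11 in Rorb-/-;CrxpNrl and 7.72, 7.80 and 6.84 in +/+;CrxpNrl. For both, Rorb-/-;CrxpNrl replicate 3 stood above the other mice of its group.

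Among the 40 measured genes nearest to Rorb in RefSeq order on chromosome 19, 20 on each side, 12 rose and 5 fell (42.5%, beside 36.6% of all genes). The largest were Trpm3 (2.69 ± 0.15), Gna14 (2.60 ± 0.24) and Ptar1 (-2.37 ± 0.29).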
